A study of Homo sapiens with 24 samples.

Results

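Axonemal dynein heavy chains are the motor subunits of the arms that slide the microtubule doublets of motile cilia and sperm tails. Outer arms, which carry DNAH5, DNAH8, DNAH9, DNAH11 or DNAH17 depending on the cell and the position along the axoneme, supply most of the beat power. Inner arms, which carry DNAH1, DNAH2, DNAH3, DNAH6, DNAH7, DNAH10, DNAH12 and DNAH14 among others, shape the bend. DNAH5 is best known because loss of its function causes primary ciliary dyskinesia, in which airway cilia lack outer arms. The breast epithelium has no motile cilia in textbook descriptions.

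A set of 10 genes of this family was taken by symbol, namely DNAH1, DNAH2, DNAH3, DNAH5, DNAH6, DNAH7, DNAH10, DNAH11, DNAH14 and DNAH17, out of the 18889 gene IDs of the deposited table. Of these 10 symbols, 9 were listed, and the expression of DNAH2 was not analysed here. The set was selected on the DNAH5 values of HCC1500 at low and high glucose, so that every DNAH5 value in that line is given as a description without a test. The other 8 listed genes, and DNAH5 in the remaining lines, were tested.

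The study grew 3 estrogen receptor-positive (ER+) human breast carcinoma lines, named HCC1500, MDA-MB-175 and ZR-75-30, in serum-free medium with 5 mM glucose (low glucose, the control) or 25 mM glucose (high glucose, a model of hyperglycemia) for 48 hours. Each of the 6 groups had 4 replicates, numbered 1 to 4, giving 24 RNA-Seq samples, and each line stands for 1 tumor. No source used here states whether replicates came from separate cultures, so the p-values measure the spread between these samples, which may be technical. TXNIP, which glucose induces in most cells, was higher at high glucose in every line (615 ± 21.9 against 1045 ± 27.3 in ZR-75-30, mean ± SD, n = 4 each), in the direction of the labels.

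Values below are the deposited normalized read counts. Each was a whole number of reads multiplied by 1 factor per sample, with 9140024 to 17998819 reads per sample and 3 reads, taken as the detection floor, worth 0.953 to 2.29. Depth differed by condition in HCC1500, with at least 13190982 reads in every low glucose library and at most 12140912 in every high glucose one. One library of that line, high glucose replicate 3, stood apart. Its mean Pearson correlation with the other 3 high glucose libraries was 0.914 over 12816 genes, against 0.991 for each of the others. It was low in long transcripts: the median log2 difference from the other 3 was -0.40 over 2006 genes with at least 10 kb of exon and 0.29 over the 12521 genes of known exon length, all with a mean of at least 10. All members are that long. In it 6 of the 9 listed members were below the range of the other 3 high glucose libraries, 1 was above and 2 were within. HCC1500 is therefore given without this library first. All 9 luminal breast epithelium markers were above 0 in every line, with summed values from 40343 to 85060. Of these, CDH1 was far lower in ZR-75-30 (49.0 to 62.0) than in MDA-MB-175 (5692 to 6512) and HCC1500 (6704 to 8263).

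The genes lie on different chromosomes and are among the longest transcripts of the genome. DNAH5 (ENSG00000039139) lies on chromosome 5 at 13690437 to 14011927 on the minus strand of GRCh37, with 79 exons in its canonical transcript and 24848 bases of exon in all its annotated transcripts. The other 8 listed members had 13514 to 21349 bases of exon. DNAH10, DNAH11 and DNAH17 overlap exons of listed opposite-strand genes (2285 bases for DNAH10, 833 for DNAH11 and 93 for DNAH17). With unlisted annotated genes counted too, DNAH10 shared 2384 bases and DNAH17 2024. DNAH5 shared 207 and DNAH3 84 bases with unlisted genes only. The strand setting of the counting was not given in the sources used here, so that reads of shared bases cannot be assigned with certainty.

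The promoters of DNAH5, DNAH1 and DNAH7 are printed because they differ in matches to the motif strings searched below. RFX factors, which switch on many axonemal genes, bind the X-box, an inverted repeat of half-sites such as GTTGCC. RefSeq start-site windows of 300 bases (250 before and 50 after the start, GRCh38.p14) were held for 8 of the 10 members, DNAH3 and DNAH17 being without one. On either strand, GTTGCC was in the windows of 4 of these 8 members (DNAH1, DNAH2, DNAH6 and DNAH10) and in 12.2% of all 35116 windows. The paired form GTTGCNNNGCAAC was in 2 of 8 (DNAH1 and DNAH7) and in 0.196% of all windows, and GTTGCNNNNGCAAC in 1 of 8 (DNAH1) and in 0.179%. These motifs can overlap each other. The E-box CACGTG (7.26% of all windows) and the estrogen response element GGTCANNNTGACC (0.057%) were in none of the 8, which says only that these letters are not in these windows. The windows of DNAH5 (chr5:13944639-13944938, minus strand, 37.7% G and C), DNAH1 (chr3:52316069-52316368, plus strand, 56.3%) and DNAH7 (chr2:196068788-196069087, minus strand, 59.3%) run 5′ to 3′ on the gene's strand, with any motif match in capitals.
DNAH5: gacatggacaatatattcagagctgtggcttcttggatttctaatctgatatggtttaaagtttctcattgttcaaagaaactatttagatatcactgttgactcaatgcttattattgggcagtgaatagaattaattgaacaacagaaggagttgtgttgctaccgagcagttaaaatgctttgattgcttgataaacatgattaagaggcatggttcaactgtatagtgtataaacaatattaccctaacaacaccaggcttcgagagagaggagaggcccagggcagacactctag
DNAH1: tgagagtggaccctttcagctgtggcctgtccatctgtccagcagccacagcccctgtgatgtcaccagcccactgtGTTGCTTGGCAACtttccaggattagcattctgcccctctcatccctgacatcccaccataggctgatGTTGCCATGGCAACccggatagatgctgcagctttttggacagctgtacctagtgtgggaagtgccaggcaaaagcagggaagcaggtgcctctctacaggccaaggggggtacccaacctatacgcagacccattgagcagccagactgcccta
DNAH7: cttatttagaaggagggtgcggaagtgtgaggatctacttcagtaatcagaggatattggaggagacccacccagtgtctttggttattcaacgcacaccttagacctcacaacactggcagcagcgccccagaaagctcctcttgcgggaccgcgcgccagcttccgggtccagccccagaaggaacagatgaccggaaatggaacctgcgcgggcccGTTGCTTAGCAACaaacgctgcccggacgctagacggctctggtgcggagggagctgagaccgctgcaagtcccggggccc
The DNAH5 window held no match to any of the motifs searched, nor did those of DNAH11 and DNAH14. The DNAH1 window held both paired forms. Only exact strings were searched, and looser forms of the X-box would be missed. The matches are a description of the sequence, not of factor binding.

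DNAH5 was lower at high glucose in all 3 lines. It encodes the outer arm heavy chain named gamma, and the plot of all members by sample shows it in the first panel. In HCC1500 the low glucose values were 209, 206, 209 and 219, and the high glucose values of replicates 1, 2 and 4 were 25.96, 28.4 and 29.1. Replicate 3, left out of the mean, had 21.5. The low glucose values rested on 509 to 648 reads and the high ones on 44 to 63. The mean was 7.58 times higher at low glucose, 211 ± 5.83 (SD, n = 4) against 27.8 ± 1.63 (SD, n = 3), and the log2 change was -2.88, or -2.97 with replicate 3 kept. This is the contrast that chose the gene, and no test is given.

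In MDA-MB-175, which the choice did not use, DNAH5 fell from 34.5, 36.2, 28.5 and 33.1 at low glucose to 24.5, 21.6, 22.6 and 15.8 at high glucose. The groups did not overlap, and the log2 change was -0.63 ± 0.17 (SE; limma with Benjamini-Hochberg adjustment over all genes tested, adjusted p = 0.00954). In ZR-75-30 it fell from 13.3, 12.5, 17.1 and 14.5 to 11.98, 7.43, 6.37 and 9.59. Again the groups did not overlap, with a log2 change of -0.67 ± 0.24 (limma adjusted p = 0.0325). These values rested on 11 to 30 reads, and the call in ZR-75-30 was lost in DESeq2 (adjusted p = 0.0839). It was also lost without low glucose replicate 3 (adjusted p = 0.0905), low glucose replicate 4 (0.0569), high glucose replicate 2 (0.0743) or high glucose replicate 3 (0.103) of that line. The change in MDA-MB-175 differed from that in ZR-75-30 by 0.03 ± 0.22 on the log2 scale (limma adjusted p = 0.946). DNAH5 in HCC1500 was 6.38 times its level in MDA-MB-175 and 14.7 times that in ZR-75-30 at low glucose, and 1.32 and 3.14 times at high glucose.

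**Figure D1:**
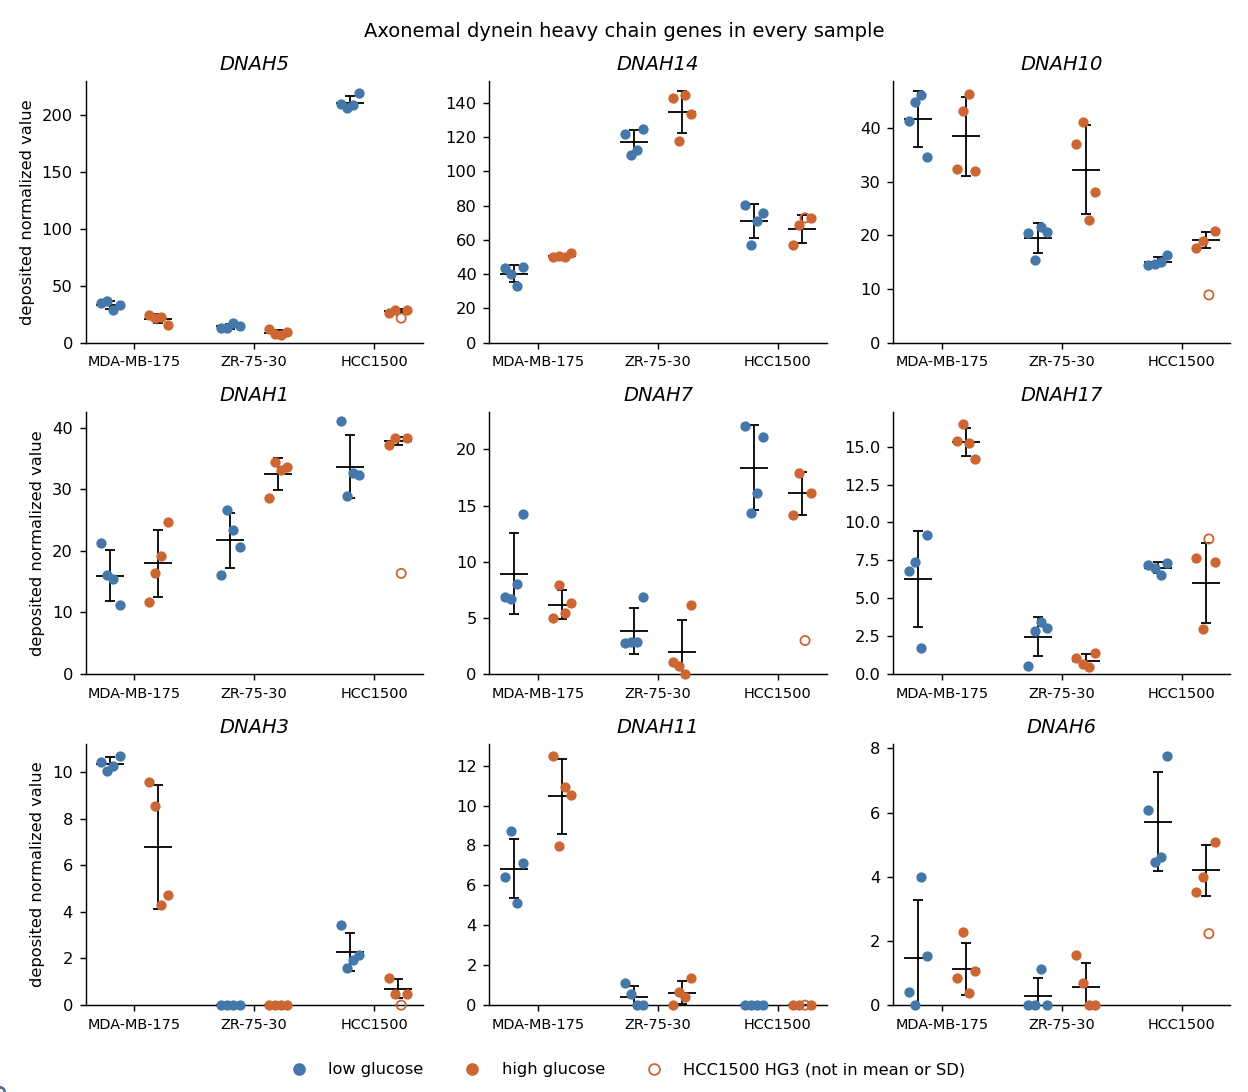
Deposited normalized values (vertical axes, linear, from 0) of the 9 listed members in each of the 24 samples, by line and glucose, with a horizontal bar and whiskers for mean and SD and an open circle for HCC1500 high glucose replicate 3, which is outside mean and SD. DNAH5 at low glucose in HCC1500, from 206 to 219, stands above all other DNAH5 values, which lie between 6.37 and 36.2.

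DNAH5 made up most of the family's summed values in HCC1500 at low glucose. These sums are not divided by length, and DNAH5 has the most exon bases of the listed members, so the shares favour it. Summed over the 9 listed members, HCC1500 had 364 ± 23.7 (SD, n = 4) at low glucose, of which DNAH5 was 58.0% ± 2.96, and 178 ± 12.9 (n = 3) at high glucose, of which it was 15.6% ± 0.282. The sum of the other members was 153 ± 20.1 and 150.3 ± 11.3 in these groups. In MDA-MB-175 the sum was 165 ± 8.97 at low and 168 ± 7.57 at high glucose, and in ZR-75-30 179.6 ± 8.32 and 212 ± 8.95 (n = 4 each). In MDA-MB-175 the DNAH5 share was 20.005% ± 1.04 at low and 12.6% ± 2.22 at high glucose, and in ZR-75-30 it was 7.98% ± 0.959 and 4.14% ± 0.995 (n = 4 each). With the family so weakly transcribed, and in bulk RNA, fewer cells of a kind and less RNA per cell cannot be told apart.

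Among the other outer arm chains, DNAH17, which serves sperm tails, rose in MDA-MB-175. Its values were 6.82, 7.37, 1.71 and 9.16 at low glucose and 15.4, 16.5, 15.2 and 14.2 at high glucose. No high glucose value was as low as any low glucose value, and the log2 change was 1.32 ± 0.33 (limma adjusted p = 0.00762). In ZR-75-30 the values were 0.554, 2.84, 3.42 and 3.05 at low and 1.04, 0.675, 0.425 and 1.37 at high glucose, all from 6 reads or fewer, and the log2 change of -0.80 ± 0.41 did not pass (limma adjusted p = 0.121). In HCC1500 the change was -0.27 ± 0.30 (limma adjusted p = 0.452). The opposite-strand gene PGS1, which overlaps DNAH17 in 93 bases, had a log2 change of 0.01 ± 0.08 in MDA-MB-175 (limma adjusted p = 0.937). PGS1 fell in ZR-75-30 (-0.48 ± 0.14, limma adjusted p = 0.0102) and in HCC1500 (-0.28 ± 0.05, 0.000203). DNAH17 also shares exon bases with DNAH17-AS1, which is not listed, and the part of its reads was not tested.

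DNAH11, an outer arm chain of the inner part of the cilium, did not pass the test in any line. In MDA-MB-175 its values spanned 5.12 to 8.71 at low and 7.95 to 12.5 at high glucose, overlapping, with a log2 change of 0.55 ± 0.24 (limma adjusted p = 0.101). In ZR-75-30 it had at most 2 reads in any sample. In HCC1500 it had 0 reads in all 8 samples, which allows at most 0.0494 RPM over the low glucose and 0.0704 over the high glucose libraries, counting error only. CDCA7L, which overlaps DNAH11 on the opposite strand, was also listed at 0 in the HCC1500 samples fitted, against 313 ± 10.2 in MDA-MB-175 and 236 ± 10.8 in ZR-75-30 at low glucose (SD, n = 4). This pair of neighbours was chosen after its values were seen.

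DNAH8, another sperm outer arm chain and not a member of the set, was listed with up to 2.27 in MDA-MB-175, 0.521 to 6.26 in ZR-75-30 and 0 in HCC1500. Its change differed between MDA-MB-175 and ZR-75-30 (1.27 ± 0.41 on the log2 scale, limma adjusted p = 0.0238), on 11 reads or fewer per sample. DNAH9 was not analysed here.

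The inner arm chains DNAH1 and DNAH10 rose in ZR-75-30. DNAH1 had values of 16.1, 26.7, 23.4 and 20.6 at low and 28.6, 34.4, 33.1 and 33.6 at high glucose, without overlap, and a log2 change of 0.58 ± 0.18 (limma adjusted p = 0.0129). In MDA-MB-175 its values overlapped, at 11.2 to 21.3 at low and 11.6 to 24.7 at high glucose, with a log2 change of 0.15 ± 0.24 (limma adjusted p = 0.703). In HCC1500 they ran from 28.9 to 41.0 and from 37.2 to 38.3, with a change of 0.18 ± 0.14 (limma adjusted p = 0.302). The third high glucose library of HCC1500 had 16.3, and with it the change became -0.12.

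DNAH10, a chain of the double-headed inner arm, had values of 20.5, 15.4, 21.6 and 20.6 at low and 36.97, 41.2, 22.9 and 28.1 at high glucose in ZR-75-30. The lowest high glucose value was above the highest low glucose one, and the log2 change was 0.67 ± 0.20 (limma adjusted p = 0.0101). DNAH10OS, a gene on the opposite strand that overlaps it, rose there too, from 159.5 ± 9.18 to 249.9 ± 10.4 (SD, n = 4; log2 change 0.65 ± 0.06, limma adjusted p = 1.27e-07), and reads of the shared bases cannot be told apart. The second overlapping gene, CCDC92, had a log2 change of 0.04 ± 0.07 in that line (limma adjusted p = 0.637). In MDA-MB-175 DNAH10 spanned 34.6 to 46.1 at low and 32.1 to 46.5 at high glucose (log2 change -0.12 ± 0.15, limma adjusted p = 0.609). In HCC1500 it ran from 14.4 to 16.4 and from 17.7 to 20.8 without overlap, but the change of 0.32 ± 0.18 did not pass (limma adjusted p = 0.135). It passed after rescaling by median-of-ratios factors (adjusted p = 0.0483) and in edgeR (0.0462), and with replicate 3 kept the change was 0.07.

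DNAH14, a less studied inner arm chain, did not pass the test in any line. In ZR-75-30 its values were 122, 109.8, 112 and 124 at low and 143, 117, 144 and 134 at high glucose (log2 change 0.20 ± 0.08, limma adjusted p = 0.0647). In MDA-MB-175 they were 43.7, 40.2, 33.0 and 44.3 at low and 49.9, 50.6, 49.97 and 52.0 at high glucose, without overlap but short of the threshold (0.33 ± 0.12, limma adjusted p = 0.0589). Both changes passed in edgeR, with adjusted p = 0.0431 and 0.0415. In HCC1500 the change was -0.09 ± 0.12 (limma adjusted p = 0.53), and its sign turned with the scaling.

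DNAH3, DNAH6 and DNAH7 encode single-headed inner arm chains, and they were sparse. DNAH3 fell in HCC1500, from 3.42, 1.59, 1.92 and 2.15 at low to 1.18, 0.497 and 0.462 in the 3 high glucose libraries, which held 1 or 2 reads each. The log2 change was -0.93 ± 0.38 (limma adjusted p = 0.0443). It entered the test through its low glucose samples, and the call was lost in edgeR (adjusted p = 0.0829), in DESeq2 (0.195) and without any 1 of the low glucose replicates or of high glucose replicates 2 and 4 (adjusted p from 0.0522 to 0.135). In MDA-MB-175 DNAH3 had 10.4, 10.1, 10.2 and 10.7 at low and 9.57, 8.52, 4.29 and 4.73 at high glucose, without overlap, and a log2 change of -0.61 ± 0.26 that did not pass (limma adjusted p = 0.0998). In ZR-75-30 it had 0 reads in all 8 samples, an upper limit of 0.0623 RPM at low and 0.0556 at high glucose.

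DNAH7 overlapped between conditions in every line. HCC1500 had a log2 change of -0.17 ± 0.20 (limma adjusted p = 0.497), MDA-MB-175 of -0.43 ± 0.27 (0.283) and ZR-75-30 of -1.04 ± 0.50 (0.0988). In ZR-75-30 replicate 4 had 6.87 at low and 6.17 at high glucose, against 2.77 to 2.85 and 0 to 1.04 in the others. Without high glucose replicate 4 the change there was -1.60 and passed (limma adjusted p = 0.00509), on 0 to 2 reads in the high glucose libraries kept. It passed with no other single sample left out, and the changes of these fits ran from -1.60 to -0.66. In the third high glucose library of HCC1500, DNAH7 had 2.97, or 4 reads, against 14.2 to 17.9 in the other 3. DNAH6 spanned 4.45 to 7.75 at low and 3.54 to 5.08 at high glucose in HCC1500 (log2 change -0.35 ± 0.29, limma adjusted p = 0.315). In MDA-MB-175 it had at most 7 reads per sample, and in ZR-75-30 at most 3, too few there to enter the test. DNAH12, an inner arm chain outside the set, had at most 4 reads in any sample.

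**Figure D2:**
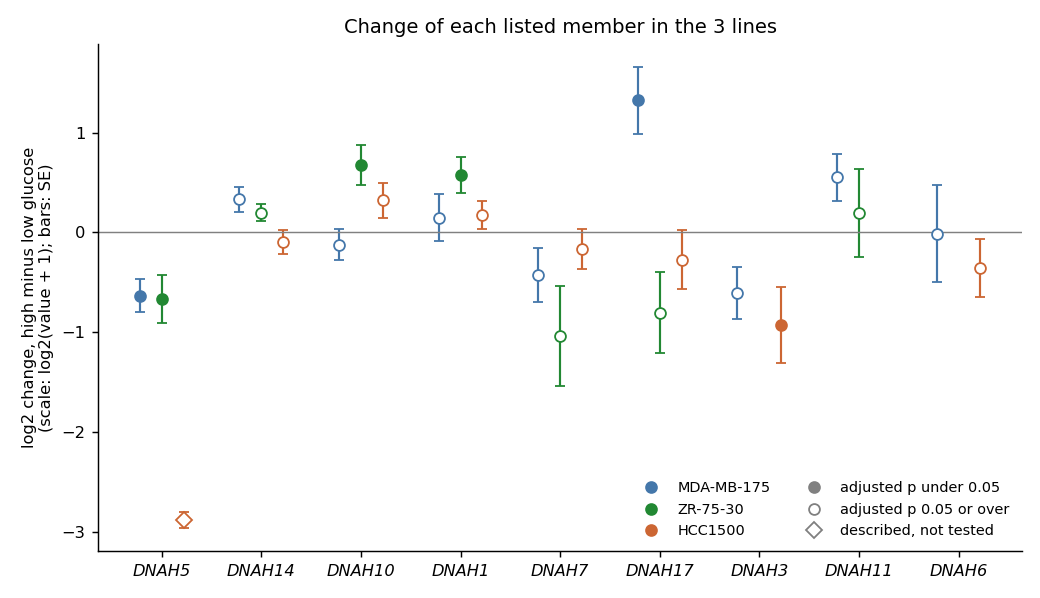
Log2 change from low to high glucose on the log2(value + 1) scale (vertical axis) with its SE for each member (horizontal axis) and line (colors), HCC1500 without high glucose replicate 3. Filled circles passed an adjusted p of 0.05 in limma, open circles did not, and the open diamond is DNAH5 in HCC1500 at -2.88, which is described without a test. Members at 0 or too sparse in a line have no point.

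Groups without overlap, named above where they occurred, were found for 57.3% of all genes tested in HCC1500, 42% in ZR-75-30 and 26.6% in MDA-MB-175.

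Counted together, 2 of 9 members tested passed in MDA-MB-175 (DNAH17 higher, DNAH5 lower), where 25.7% of all 17029 genes tested passed. In ZR-75-30 it was 3 of 7 (DNAH1 and DNAH10 higher, DNAH5 lower), where 46% of 15834 genes passed. In HCC1500, leaving DNAH5 aside, it was 1 of 7 (DNAH3 lower, the call on 1 or 2 reads at high glucose that edgeR, DESeq2 and most fits with 1 replicate left out did not make), where 57.6% of 16517 genes passed, 3406 higher and 6114 lower. The median log2 change of the members tested was -0.01 in MDA-MB-175 and 0.19 in ZR-75-30, and -0.17 for the 7 in HCC1500, against -0.02, 0.01 and -0.12 over all genes tested. The last of these depended on the scaling: after rescaling by median-of-ratios factors the median of all genes in HCC1500 was -0.01, a shift of over 0.1, and the lower share of calls was 49.4% in place of 64.2%. With replicate 3 kept, 1 of 7 (DNAH3) passed, where 20% of 16648 genes did.

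The size of the glucose response differed between lines for 2 of the 8 members other than DNAH5, by limma's F test over the 3 lines, against 48.3% of 18241 genes tested. DNAH17 (adjusted p = 0.00306) rose in MDA-MB-175 by 2.13 ± 0.50 more on the log2 scale than it changed in ZR-75-30 (limma adjusted p = 0.00265) and by 1.60 ± 0.52 more than in HCC1500 (0.0214). Of all genes tested, 25.7% passed between MDA-MB-175 and ZR-75-30, 32.3% between MDA-MB-175 and HCC1500 and 40.4% between ZR-75-30 and HCC1500 in this comparison of responses. DNAH10 (adjusted p = 0.0236) differed between MDA-MB-175 and ZR-75-30 by -0.80 ± 0.24 (limma adjusted p = 0.0147). Its F test was lost when HCC1500 replicate 3 was kept (adjusted p = 0.107), and without any 1 of high glucose replicates 1 and 4 of MDA-MB-175, low glucose replicate 2 or high glucose replicates 1 and 2 of ZR-75-30 (adjusted p from 0.0501 to 0.0560). Between pairs of lines, DNAH14 responded more in MDA-MB-175 than in HCC1500 (0.42 ± 0.16, limma adjusted p = 0.0411). DNAH3 has no response to compare in ZR-75-30, where it had no reads. The other 6 of the 8 members did not pass the F test, with adjusted p from 0.0581 for DNAH3 to 0.688 for DNAH6.

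The lines were also compared with each other. At low glucose 7 of 9 members differed between MDA-MB-175 and ZR-75-30 (73.1% of 17739 genes did), 7 of the 8 other than DNAH5 between MDA-MB-175 and HCC1500 (80.6%), and 7 of 8 between ZR-75-30 and HCC1500 (80.4%), counts near the shares of all genes. The counts include DNAH11, which entered the test through its MDA-MB-175 samples, and DNAH6, which entered through its HCC1500 samples. Each was highest in that line, so these calls are not read as support. DNAH5 was highest in HCC1500 (described above), and MDA-MB-175 exceeded ZR-75-30 by 1.15 ± 0.11 on the log2 scale (limma adjusted p = 1.8e-07). DNAH14 was highest in ZR-75-30 (117 ± 7.18), then HCC1500 (71.0 ± 10.03) and MDA-MB-175 (40.3 ± 5.18, SD, n = 4 each). Each step passed: 0.72 ± 0.12 from HCC1500 to ZR-75-30 and -0.80 ± 0.12 from HCC1500 to MDA-MB-175 (limma adjusted p = 4.09e-05 and 1.53e-05).

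MDA-MB-175 had the highest DNAH10, DNAH3 and DNAH11. DNAH10 was 41.7 ± 5.18 there, against 19.5 ± 2.83 in ZR-75-30 and 15.1 ± 0.874 in HCC1500, and the small step between the last of these lines (0.34 ± 0.14, limma adjusted p = 0.0412) was near 0 under CPM scaling (0.0039, adjusted p = 0.993) and did not pass without any 1 of low glucose replicates 1 of MDA-MB-175, 1, 3 and 4 of ZR-75-30 or 1, 2 and 3 of HCC1500 (adjusted p from 0.0525 to 0.102). DNAH3 was 10.4 ± 0.269, against 2.27 ± 0.801 in HCC1500 and 0 in ZR-75-30, and DNAH11 was 6.84 ± 1.49, against 0.419 ± 0.532 in ZR-75-30 and 0 in HCC1500. HCC1500 had the highest DNAH1 (33.7 ± 5.17) and DNAH7 (18.4 ± 3.77), each above both other lines with limma adjusted p from 8.68e-06 to 0.00975, though DNAH1 against ZR-75-30 did not pass with the exon length trend removed (0.0698). DNAH6 was also highest there (5.72 ± 1.54), given as a description since it entered the test through that line. DNAH1 did not pass between MDA-MB-175 and ZR-75-30 (-0.43 ± 0.20, limma adjusted p = 0.0659), nor did DNAH6 (0.76 ± 0.43, 0.123). DNAH17 did not pass between MDA-MB-175 and HCC1500 (-0.30 ± 0.40, limma adjusted p = 0.501), and was lower in ZR-75-30 than in HCC1500 (-1.32 ± 0.40, 0.00701) and MDA-MB-175 (0.0317). The latter call was lost without any 1 of MDA-MB-175 replicates 1, 2 and 4 or ZR-75-30 replicate 1 (adjusted p from 0.0732 to 0.114).

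Levels can be compared between genes only per length. Per kilobase of exon, DNAH5 at low glucose in HCC1500 had 8.48 ± 0.234 (SD, n = 4), the first of the 11 listed heavy chains, ahead of DNAH14 with 3.61 ± 0.509 and DNAH1 with 2.43 ± 0.373. At high glucose DNAH5 had 1.12 ± 0.0658 (n = 3) and came after DNAH10 with 1.18 ± 0.0954, a gap within the SD. Ahead were also DNAH1 with 2.73 ± 0.0476 and DNAH14 with 3.37 ± 0.412. Length here covers all annotated transcripts, 24848 bases for DNAH5 and 16234 for DNAH10, against 15781 and 14039 in their canonical transcripts. The order of DNAH5 and DNAH10 at high glucose depends on that choice. In ZR-75-30 DNAH14 led at both levels of glucose, with 5.95 ± 0.364 and 6.83 ± 0.627. In MDA-MB-175 DNAH10 led at low glucose with 2.57 ± 0.319 and DNAH14 at high glucose with 2.57 ± 0.0504, while DNAH10 had 2.37 ± 0.454 there, a gap within the SD. At high glucose DNAH14 was thus the first in all 3 lines.

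**Figure D3:**
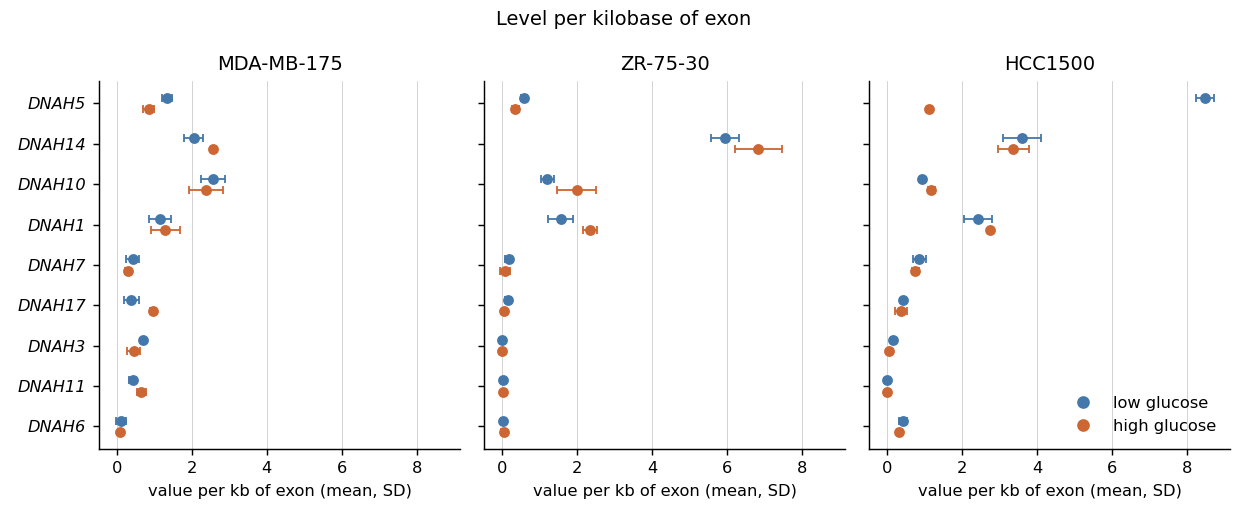
Mean value per kilobase of exon (horizontal axes) with SD for the 9 listed members in the 3 lines, low glucose in blue and high glucose in orange, HCC1500 high glucose without replicate 3 (n = 3, otherwise n = 4). DNAH5 in HCC1500 moves from 8.48 to 1.12, and DNAH14 leads in ZR-75-30.

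Other long transcripts were set beside DNAH5, since the HCC1500 library left out was low in them. Of 2500 listed genes with at least 10 kb of exon that are not members, 2267 were tested in HCC1500, and 613 were higher and 875 lower, with a median log2 change of -0.07, against -0.12 over all genes tested. With replicate 3 kept, 112 were higher and 392 lower, and the median was -0.16 against -0.06. The place of DNAH5 among them in HCC1500 follows from how it was chosen and is not read. In MDA-MB-175, 2.39% of the 2386 long genes tested had a lower log2 change than DNAH5, and in ZR-75-30 it was 5.55% of 2216. After removal of a smooth trend with exon length, the log2 change of DNAH5 in HCC1500 was -2.83.

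**Figure D4:**
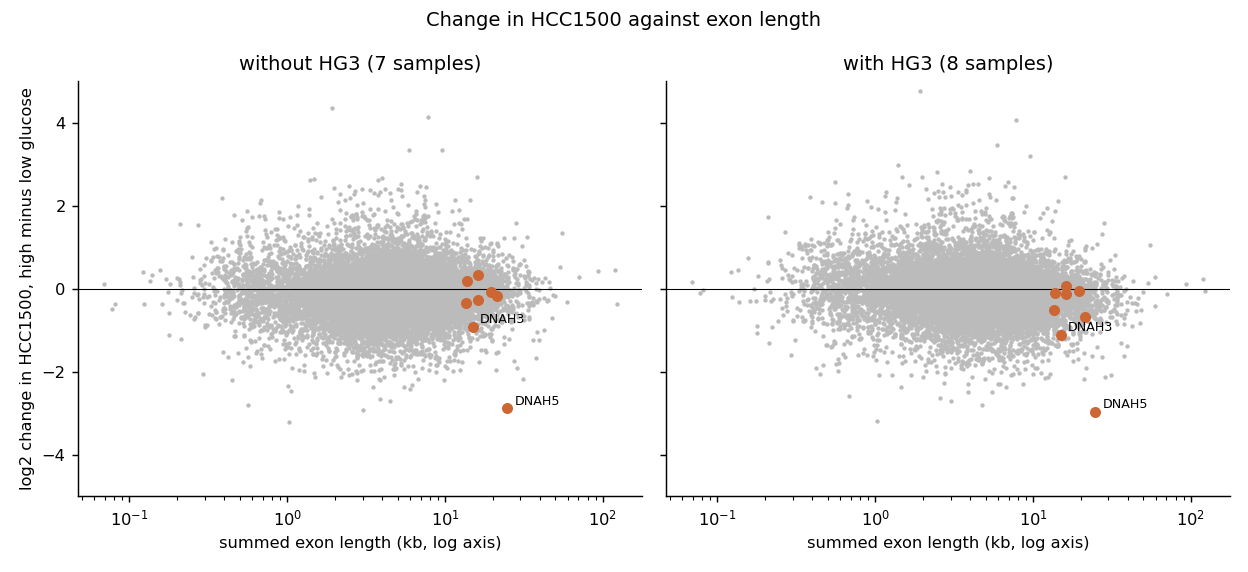
Log2 change in HCC1500 from low to high glucose (vertical axis) against summed exon length in kilobases (horizontal log axis), without replicate 3 on the left (7 samples) and with it on the right (8 samples). Each grey point is a gene tested and orange points are members, of which DNAH5 and DNAH3 are named. DNAH5 is at -2.88 and -2.97.

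Of the genes around DNAH5, FBXL7 fell and ANKH rose in HCC1500. No listed gene lay within 2 Mb on its lower-coordinate side, and 6 lay on the other side. Of these 6, those 2 passed, where 57.6% of all genes tested in HCC1500 did, so the count was not above the background. The nearest, TRIO, which encodes a guanine nucleotide exchange factor and starts 131.5 kb away, had 573 ± 6.32 at low and 555 ± 17.9 at high glucose in HCC1500 (log2 change -0.05 ± 0.04, limma adjusted p = 0.288), and it fell by 0.22 on the log2 scale in ZR-75-30 (limma adjusted p = 0.000363). FBXL7, an F-box gene and the farthest of the 6, fell from 88.5 ± 6.05 to 40.8 ± 1.45 in HCC1500 (-1.10 ± 0.10, limma adjusted p = 2.52e-08). ANKH, which takes part in pyrophosphate export, rose from 96.0 ± 3.93 to 127 ± 15.3 (0.40 ± 0.09, limma adjusted p = 0.00061). FAM105A, FAM105B and the pseudogene CTD-2165H16.1 did not pass there, with log2 changes from 0.04 to 0.26.

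**Figure D5:**
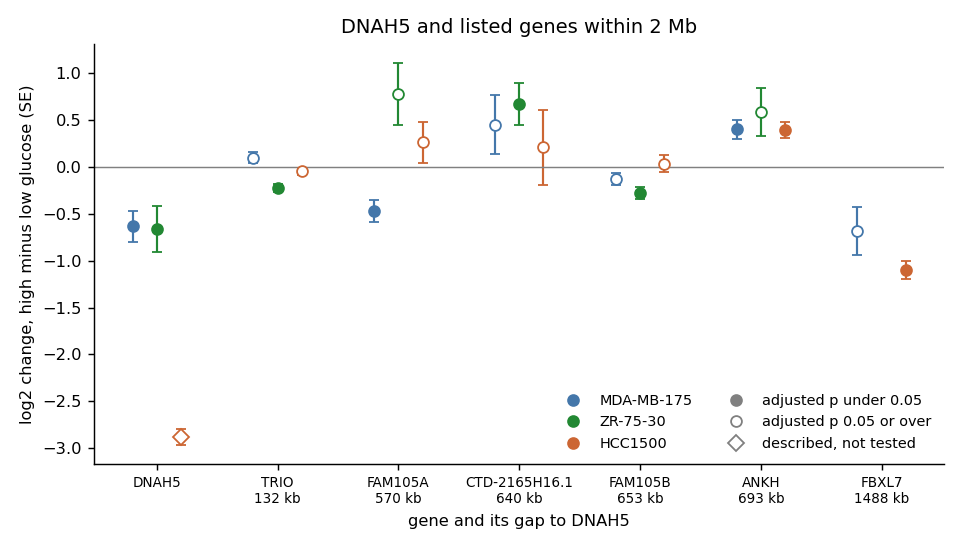
Log2 change from low to high glucose with its SE (vertical axis) of DNAH5 and the 6 listed genes within 2 Mb, ordered by their gap in kilobases (horizontal axis), for the 3 lines (colors). Filled circles passed an adjusted p of 0.05, open circles did not, and the diamond is DNAH5 in HCC1500, described without a test. TRIO, the nearest, lies near 0 in HCC1500, while FBXL7 is at -1.10.

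The other genes of the motile axoneme were read from lists chosen with earlier results of these data known. The dynein arm assembly factors, cytoplasmic proteins that fold and preassemble the arms, included no gene called higher. Of 12 tested, 7 were lower in MDA-MB-175 and 6 in ZR-75-30, and of 11 tested in HCC1500, 10 were lower, with medians of -0.20, -0.21 and -0.37 on the log2 scale. Over all genes tested 25.7%, 46% and 57.6% passed, with medians of -0.02, 0.01 and -0.12. ZMYND10 fell most in MDA-MB-175, from 76.9 ± 9.03 to 38.4 ± 9.40 (-1.01 ± 0.16, limma adjusted p = 0.000171), and fell by 0.79 in ZR-75-30 (0.0183). DNAAF3 fell in HCC1500 from 99.8 ± 9.82 to 62.4 ± 3.33 (-0.67 ± 0.09, limma adjusted p = 9.1e-06), with LRRC6 at -0.65 and SPAG1 at -0.64. In ZR-75-30 RUVBL1 (-0.43) and HEATR2 (-0.37) followed, and in MDA-MB-175 LRRC6 (-0.42) and DNAAF3 (-0.33). The HCC1500 count was 6 of 11 under median-of-ratios factors and 2 of 11 with replicate 3 kept, all lower. Of all genes tested 55.8% and 20% passed in either direction, near these counts. Those that passed lower were 4580 of 16594 and 2110 of 16648. The medians of the list were -0.25 and -0.13, against -0.01 and -0.06 over all genes tested.

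Of the other axonemal dynein chains and the factors that dock or attach the arms, 10, 9 and 9 were tested in the 3 lines (MDA-MB-175 first, HCC1500 last), with median log2 changes of -0.12, -0.0017 and -0.35. DNALI1, an inner arm light intermediate chain, fell in MDA-MB-175 from 162 ± 17.6 to 129.9 ± 3.99 (-0.31 ± 0.08, limma adjusted p = 0.00814), the 1 call there. DNHD1, a dynein-related heavy chain, rose in ZR-75-30 from 35.9 ± 3.41 to 81.4 ± 10.2 (1.15 ± 0.13, limma adjusted p = 5.55e-07), again the 1 call, and rose by 0.36 ± 0.14 in HCC1500 (0.0313). In HCC1500 3 others were lower, among them DNAI1, an outer arm intermediate chain that partners the outer arm heavy chains (11.6 ± 2.92 to 5.87 ± 3.31, -0.99 ± 0.33, limma adjusted p = 0.0165) and CCDC103, an attachment factor and not a chain (-0.42). Over all genes tested 25.7%, 46% and 57.6% passed.

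Other structural genes of the motile axoneme (radial spokes, central pair and regulatory complexes) passed in 3 of 17 in MDA-MB-175, all lower, in 3 of 15 in ZR-75-30 (2 higher, 1 lower) and in 9 of 17 in HCC1500 (1 higher, 8 lower), with median log2 changes of -0.21, -0.04 and -0.30. Over all genes tested 25.7%, 46% and 57.6% passed, so that none of these counts was above the background. With replicate 3 kept the last count was 4, where 20% of all genes passed. The radial spoke gene RSPH1 fell in MDA-MB-175 (-0.74 ± 0.19), with TPPP3 (-0.36). In ZR-75-30 SPAG16 (0.48) and GAS8 (0.44) rose and RSPH3 (-0.35) fell. In HCC1500 SPEF2, a central pair gene, fell from 85.6 ± 9.10 to 42.3 ± 3.10 (-0.99 ± 0.11, limma adjusted p = 3.48e-07) and SPAG17 from 12.7 ± 4.15 to 6.17 ± 1.08 (-0.89 ± 0.27, 0.00971), and CCDC164 rose from 0.768 to 2.80, near the detection floor.

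Transcription factors of the motile cilium program included genes that rose and genes that fell. FOXJ1, its master regulator, fell in MDA-MB-175 from 114 ± 15.9 to 87.1 ± 2.65 (-0.38 ± 0.10, limma adjusted p = 0.00946) and rose in HCC1500, where DNAH5 was lower at high glucose, from 26.9 ± 4.31 to 46.8 ± 5.76 (0.78 ± 0.15, 0.000248). RFX3, which binds the X-box, rose in HCC1500 (0.84 ± 0.24, limma adjusted p = 0.00551) and fell in ZR-75-30 (-0.38 ± 0.09, 0.00225). TP73 fell in all 3 lines (-0.45, -1.48 and -0.80), and MYB fell in MDA-MB-175 (-0.69) and ZR-75-30 (-0.63). In all, 3 of 9 (all lower), 5 of 7 (2 higher) and 6 of 9 (3 higher) passed in the 3 lines in the same order, with median log2 changes of -0.12, -0.22 and 0.07, against 25.7%, 46% and 57.6% of all genes tested.

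Cytoplasmic and intraflagellar dynein, which moves cargo rather than the beating axoneme, passed in 10 of 16 (4 higher), 9 of 15 (4 higher) and 11 of 15 (5 higher) in the 3 lines in that order, with median log2 changes of -0.12, -0.10 and -0.10. Over all genes tested 25.7%, 46% and 57.6% passed. The last count was 2 with replicate 3 kept, where 20% of all genes passed. WDR34, an intermediate chain of the intraflagellar motor, fell in each line, by 0.40, 0.86 and 0.97 on the log2 scale. DYNC2H1, its heavy chain, fell in MDA-MB-175 (-0.62 ± 0.19, limma adjusted p = 0.0288), and DYNLT3 rose there (0.46) and in ZR-75-30 (0.59), where WDR60 fell (-0.78). DYNLT1 (-0.46) and DYNC2LI1 (-0.45) fell in HCC1500.

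Markers of cells that carry motile cilia were lowest in ZR-75-30. Of 11 multiciliated epithelium markers, 6 were listed. Their summed value spanned 283 to 355 at low and 229 to 264 at high glucose in MDA-MB-175, and from 151 to 160.0 and from 152 to 167 in HCC1500. In ZR-75-30 it was 14.2 to 22.7, with CCNO at 0. Fibroblast markers (4 of 4 listed) summed to between 78.6 and 294 over all groups, mostly COL1A1, with DCN at 0 in ZR-75-30 and HCC1500. The 1 listed leukocyte marker of 3, CD68, was at most 8.32 except in ZR-75-30, where it spanned 4.58 to 6.82 at low and 33.6 to 43.9 at high glucose. The 2 listed endothelium markers of 3 summed to at most 77.7, in MDA-MB-175. The cultures were of carcinoma lines that the study had authenticated, so these values are not read as a presence of fibroblasts, leukocytes or endothelium. Whether some cells of a line carried motile cilia was not tested.

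By likeness over the 23 samples, the genes whose log2(value + 1) followed DNAH5 most closely among 13279 genes with a mean of at least 10 were ATP6V0E2 (Pearson r = 0.972), FBXL17 (0.971), G6PC3 (0.965), LRRC45 (0.961) and TMEM132A (0.96). All 5 were highest in HCC1500 at low glucose: ATP6V0E2, for example, had a mean of 1285 there and 582 at high glucose, and 648 and 522 in MDA-MB-175. Samples of a group share their line and medium, so r mainly states that the group means run in parallel, and it is given without a p. Of the members, DNAH1 had r = 0.174, DNAH14 -0.398 and DNAH10 -0.458. Over the 7 HCC1500 samples the closest genes were RASA1, TOP2A, KIF2C, C1orf115 and BRCA1, with r of at least 0.999, as any gene that separates the conditions with little spread would have.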

How the data were processed

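RNA of the 24 samples was sequenced on an Illumina HiSeq. According to the study's methods, reads were trimmed with Trimmomatic and TopHat aligned them to hg19 using the Ensembl v70 annotation, while the submitters' processing notes list hg38 and edgeR. The deposited table gives a signal value for each of 18889 gene IDs in each sample, and the study's methods describe CPM with TMM factors made in edgeR, but the deposited values sum to between 5559394 and 7594840 per sample and so do not match that description. The steps between values showed that each is a whole number of reads times 1 factor per sample (100% of values in every sample, within 0.01 of a whole number), and these reads were recovered for count tests. Their totals set the precision: intervals and limits from reads cover counting error only.

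Groups came from the sample titles and treatment labels. Each line was fitted with limma 3.58.1 (R 4.3.3, trend) on log2(value + 1), which understates changes of low genes, for genes that reached 0.5 in no fewer samples than the smaller group holds. HCC1500 was fitted on 7 samples without high glucose replicate 3. The F test between lines used 23 samples and the comparison of lines 12 low glucose samples. Calls are Benjamini-Hochberg adjusted p under 0.05 over all genes tested, from limma unless another tool is named. A plan made before the unit was known kept its log2 test.

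The members, gene lists and tests were chosen with earlier results of these data known. The text names every member, DNAH8, DNAH9 and DNAH12, the 3 called genes with the largest change in each list and line, the nearest neighbours of DNAH5 and those called in HCC1500, the 5 genes most like DNAH5, and TXNIP. One gene that this rule names is not reported here. Lists held other axonemal dynein chains with docking and attachment factors (11 of 15 symbols in the table), arm assembly factors (12 of 14), other axoneme genes (18 of 23), ciliary regulators (9 of 11), cytoplasmic and intraflagellar dynein (16 of 16) and markers of luminal and multiciliated epithelium, fibroblasts, leukocytes and endothelium. Coordinates are GRCh37 from GENCODE release 44, lifted to that build by its makers, which matched 18183 IDs (96.3%). Promoters are RefSeq GRCh38.p14.

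Alternatives were pseudocounts of 0.5 and 5, no filter, rescaling to CPM or by median-of-ratios factors, edgeR 4.0.16 and DESeq2 1.42.0 on the recovered reads, removal of a trend with exon length, a replicate block, each replicate left out, and HCC1500 replicate 3 kept. For the lists beyond the members, scalings and replicate 3 were added after seeing the data. The fits were first run on simulated counts, with large known changes placed in genes of higher values only. That run does not cover the sparse members or the smaller changes given here.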

Additional observations from a re-analysis of the deposited data

Results flagged for a closer look

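The glucose response of DNAH17 and of DNAH10 differed between the 3 lines (limma's F test, adjusted p = 0.00306 and 0.0236). Of 50 groups of 4 samples with some spread, 5 held a sample far from the other 3 by Dixon's criterion. For continuous normal values this occurs in about 1 of 20 groups, a rate that does not hold for groups of few reads. DNAH1 had 16.3 in HCC1500 high glucose replicate 3. DNAH7 had 14.2 in MDA-MB-175 low glucose replicate 4, 6.87 in ZR-75-30 low glucose replicate 4 and 6.17 in ZR-75-30 high glucose replicate 4. DNAH6 had 1.14, or 2 reads, in ZR-75-30 low glucose replicate 3 and 0 in the other 3.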

How the results depend on the processing

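The depth of the members was low: apart from DNAH5 at low glucose in HCC1500 and DNAH14, no member exceeded 119 reads in a sample, so that small changes were not detectable. The log2 change of DNAH5 in HCC1500, on which the gene was chosen, was -2.72 with a pseudocount of 5, -2.76 with median-of-ratios factors, -2.81 in edgeR, -2.80 in DESeq2 and -2.97 with replicate 3 kept, and between -2.91 and -2.83 with 1 replicate left out. These values describe how its size moved with the processing, while its sign follows from the choice. The count of other members called in HCC1500 went from 1 to 0 with a pseudocount of 5, in DESeq2, with the exon length trend removed and with the replicate block (1, 0, 2 and 1 at an unadjusted p under 0.05), and the cause was not tested. With median-of-ratios factors and in edgeR the count stayed at 1, but the call was DNAH10 higher in place of DNAH3 lower. DNAH3 then had adjusted p = 0.0593 in limma with median-of-ratios factors and 0.0829 in edgeR. With 1 replicate left out, the counts ran from 2 to 3 in MDA-MB-175, 2 to 4 in ZR-75-30, 0 to 1 in HCC1500, 1 to 4 for the F test, 6 to 8 for MDA-MB-175 against ZR-75-30, 7 to 7 for MDA-MB-175 against HCC1500 and 6 to 7 for ZR-75-30 against HCC1500.

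Same-numbered replicates deviated together at most weakly (correlations of their deviations from -0.04 to 0.16 in MDA-MB-175, 0.02 to 0.07 in ZR-75-30 and -0.05 to 0.05 in HCC1500). Their means were 0.05, 0.04 and 0.009 in these lines, against -0.02, -0.01 and -0.003 for different numbers. The number was not taken as a pairing, which these small values do not exclude. With the replicate block 2 members were called in MDA-MB-175, 4 in ZR-75-30, 0 in HCC1500 and 3 by the F test, and 7, 7 and 6 between the lines in the order above. DNAH7 in ZR-75-30 (adjusted p = 0.0366) and the F test of DNAH3 (0.0444) were then called, and DNAH3 in HCC1500 (0.0665) and DNAH10 between ZR-75-30 and HCC1500 (0.064) were not.

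Signs turned for DNAH6 in MDA-MB-175 (0.079 with a pseudocount of 0.5), DNAH1 in HCC1500 (-0.12 with replicate 3 kept) and DNAH14 in HCC1500 (0.023 with median-of-ratios factors, 0.0228 in edgeR and 0.0295 in DESeq2), and with 1 replicate left out for DNAH1 (-0.013 to 0.33) and DNAH6 (-0.36 to 0.42) in MDA-MB-175, DNAH14 (-0.19 to 0.0062) and DNAH17 (-0.47 to 0.091) in HCC1500 and DNAH17 between MDA-MB-175 and HCC1500 (-0.51 to 0.12). None of these was called. Of 1176 recomputed values of single members, 1092 kept their direction and call.

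In the alternatives added after seeing the data, the arm assembly factors called in HCC1500 went from 10 to 6 with median-of-ratios factors, in edgeR and with the length trend removed, to 5 in DESeq2 and to 2 with replicate 3 kept. The other axonemal dynein chains and docking factors went from 4 to 2 in DESeq2 and to 0 in limma with replicate 3 kept (0 of 9 at an unadjusted p under 0.05), and in MDA-MB-175 from 1 to 2 in edgeR and with the length trend removed. With replicate 3 kept, other axoneme genes went from 9 to 4 and cytoplasmic and intraflagellar dynein from 11 to 2.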
